A study of Rattus norvegicus with 57 samples.

Results

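Livers of male rats dosed daily with methapyrilene at 80 mg/kg were compared on day 8 with livers of rats dosed at 30 mg/kg on the same day, gene by gene. The comparison used 10 of the 57 arrays of the study, 5 arrays per dose, which were chosen by their labelled dose and day and by no measured value. No control array entered the contrast. The rats of both groups were male Han Wistar animals, given by the labels as strain Crl:WI(Han) and 8 to 10 weeks old, and they were housed individually. Methapyrilene was given by mouth in carboxymethylcellulose at 80 or 30 mg/kg body weight per day, and control rats received that vehicle alone. The labels plan 6 animals per group, and 5 arrays were analysed here for each day 8 group, each labelled as a separate biological replicate. The other groups of the study were the same doses and the vehicle on days 4 and 15, and a day 24 set that had been dosed for 14 days and then left untreated for 10. RNA came from about 10 mg of whole frozen liver, so every array is a mixture of hepatocytes, bile duct cells, blood vessel cells and immune cells. In such bulk samples, fewer cells of a type and less RNA per cell cannot be told apart.

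Methapyrilene is an antihistamine that was withdrawn from human use because it damaged and caused tumours in rat liver. The rat hepatocyte converts it to reactive products that bind mitochondrial and other proteins, and injury begins in the hepatocytes around the portal tracts. Hepatocytes make most plasma proteins, break down amino acids, form urea and bile acids and carry out most drug metabolism, and when hepatocytes are lost, the surviving ones can re-enter the cell cycle.

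All values are MAS5 signals, which are linear probe intensities that had been scaled to the same trimmed mean on every array. Log2 fold changes are given as 80 over 30 mg/kg, with the standard error of the fit after the ± sign, and a gene was called changed at a Benjamini-Hochberg adjusted p under 0.05 over 10726 genes. The median signal of an array was 17.6 to 19.51 in the 80 mg/kg livers, against 15.2 to 17.02 in the 30 mg/kg livers, and the groups did not overlap (two-sided exact permutation test, p = 0.00794, the smallest that 5 against 5 arrays can give). The 3′ to 5′ signal ratio of the actin control probe sets, a sign of RNA quality, was 4.17 to 4.75 in the 80 mg/kg livers and 4.24 to 4.68 in the 30 mg/kg livers (exact permutation p = 0.762). The summed signal of the 9 measured hepatocyte markers was 42379 to 50073 in the 80 mg/kg arrays. It was 54781 to 62219 in the 30 mg/kg arrays and 50491 to 65124 in the day 8 controls.

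Between the doses, 4944 genes passed, 46.1% of those tested. Of these, 3383 were higher at 80 mg/kg (31.5% of the genes tested) and 1561 were lower (14.6%). All 5 livers at 80 mg/kg lay above all 5 at 30 mg/kg for 2126 genes (19.8%) and below them for 1056 genes (9.85%). The median log2 fold change of all genes was 0.15. When each array was instead set to a common median, 1487 genes were higher and 2609 lower, and after quantile normalization 2367 were higher and 1849 lower. The split between higher and lower genes thus depended on the scaling, and the part of the arrays' higher medians in any list's count was not tested. Large differences were less common: 456 genes were at least 2-fold higher and 146 at least 2-fold lower, and 57 and 17 genes passed 4-fold, with 3.31 added to every signal before the ratio was taken. The 30 mg/kg livers themselves were close to the vehicle controls of day 8, from which 25 genes differed (0.233%). Probe sets of close families, such as the glutathione transferases, the Cyp2c genes, the Acot genes and the globins, can bind each other's transcripts, which was not tested.

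Ranked by the ratio with 3.31 added, among genes that passed and did not overlap between doses, the rise was largest in Acot1, a cytosolic enzyme that splits fatty acyl-CoA into free fatty acid and coenzyme A. Its signal was 352, 586, 355, 131 and 158 in the 80 mg/kg livers, against 0.1, 2.4, 6.7, 4.25 and 1.61 in the 30 mg/kg livers. All 5 livers at 80 mg/kg were far above both the 30 mg/kg livers and the day 8 controls, which lay at 0.09 to 4.03. Its mean was 316 at 80 mg/kg and 3.01 at 30 mg/kg (adjusted p = 4.32e-08), and the 30 mg/kg mean was under the 20th percentile of all values, 3.31. With signals under 3.31 set to that value, Acot1 was at least 68.1-fold higher. Gstm3, a glutathione transferase of the mu class, read 204, 195, 395, 478 and 139 in the 80 mg/kg livers, against 9.83, 23.1, 17.2, 33.6 and 3.48 in the 30 mg/kg livers (13.8-fold, log2 fold change 4.23 ± 0.69, adjusted p = 1.73e-06). Cyp4b1, a cytochrome P450 that is usually low in liver, read 1023, 1543, 962, 726 and 886 in the 80 mg/kg livers, against 88.6, 79, 106, 113 and 85.4 in the 30 mg/kg livers (10.5-fold, adjusted p = 3.99e-13). In both genes the groups were far apart. Controls read 2.95 to 24.2 for Gstm3 and 67.1 to 73.8 for Cyp4b1. Other genes among the 12 largest rises were Tsx, a gene first known from testis (10.4-fold), the gut peptide receptor Gucy2c (8.82-fold), the muscle-type cytochrome oxidase subunit Cox6a2 and the cell cycle gene Gtse1 (7.63-fold). Cox6a2 read 32.2 to 61.8 in the 80 mg/kg livers, against 0.91 to 5.37 in the 30 mg/kg livers, and with the same floor it was at least 11.3-fold higher (adjusted p = 9.92e-07). Gtse1 read 16.2 to 125 in the 80 mg/kg livers, against 1.49 to 13.9 in the 30 mg/kg livers.

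By the same ranking the fall was largest in Stac3, which encodes an adaptor protein known for coupling membrane excitation to calcium release in skeletal muscle. Its signal was 22.2, 49.8, 21.8, 12.7 and 245 in the 80 mg/kg livers, against 2555, 2138, 2246, 1934 and 2198 in the 30 mg/kg livers. The 30 mg/kg livers were as high as the controls (2061 to 2621), and every 80 mg/kg liver was far lower, with replicate 5 the least depleted. With the offset added, Stac3 was 30.1-fold lower (log2 fold change -5.87 ± 0.41, adjusted p = 2.99e-15). Inmt, a methyltransferase of small amines, read 70, 91.3, 44.3, 16.9 and 91.8 in the 80 mg/kg livers, against 888, 508, 644, 1376 and 494 in the 30 mg/kg livers (11.9-fold lower, adjusted p = 4.74e-09). Slc22a8, an organic anion uptake carrier, read 119.9, 118, 88.1, 47.6 and 166 in the 80 mg/kg livers, against 1048, 749.8, 545, 753 and 442 in the 30 mg/kg livers (6.39-fold lower, adjusted p = 1.37e-11). Lack of overlap between the doses was a condition of this ranking. The rest of the 12 largest falls among genes without overlap between doses were in Lrtm2, Sez6, Elapor1, Aldh1b1, Mtmr7, Hao2, Mlc1, Nox4 and Sds, which were 4.32-fold to 8.71-fold lower. Nox4, an oxidase that makes hydrogen peroxide, read 0.5 to 9.45 in the 80 mg/kg livers, against 28.4 to 48.2 in the 30 mg/kg livers.

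**Figure D1:**
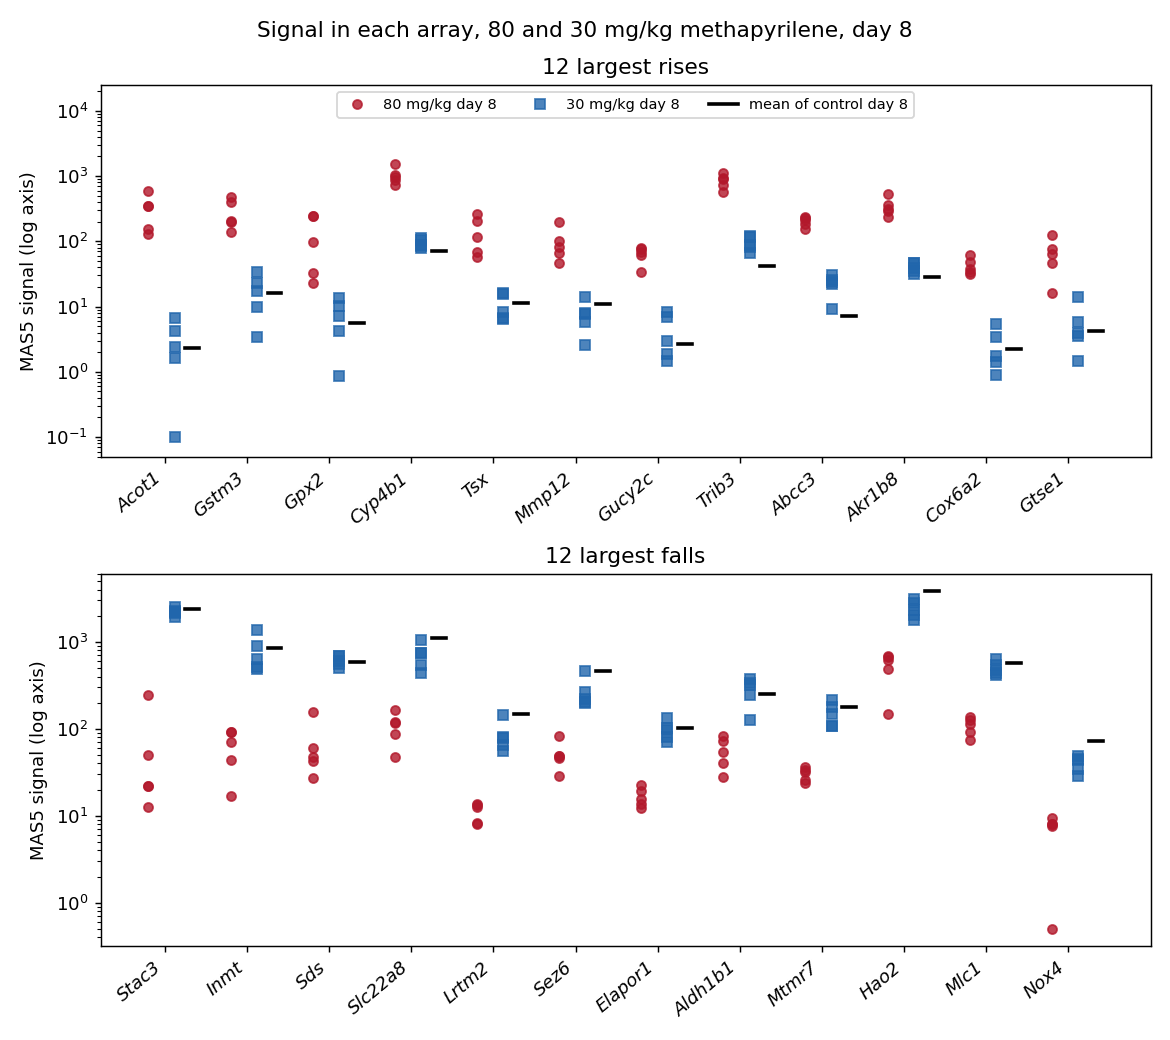
MAS5 signal on a log axis for the 12 genes with the largest rises (top) and the 12 with the largest falls (bottom) among genes whose 5 arrays at 80 mg/kg (circles) lie beyond all 5 at 30 mg/kg (squares), with the day 8 control mean as a bar. Acot1 was at least 68.1-fold higher and Stac3 30.1-fold lower at 80 mg/kg, while most 30 mg/kg values lie near the control bar.

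Genes of the Nrf2 antioxidant programme, which make glutathione, reduce quinones and peroxides and export conjugates, were mostly higher. Of 24 measured members, 15 rose and 0 fell, against 31.5% and 14.6% of all genes, and their median log2 fold change was 0.43 against 0.15 for all genes. With a common median, 10 rose and 2 fell. Gpx2, a glutathione peroxidase first known from the gut, read 246, 23.3, 33.2, 242 and 96.3 in the 80 mg/kg livers, against 0.85, 4.25, 7.11, 10.2 and 13.4 in the 30 mg/kg livers. Its 80 mg/kg livers were all higher but spread widely, with replicates 2 and 3 well under the others (12.5-fold, log2 fold change 4.05 ± 0.80, adjusted p = 4.06e-05). The exporter Abcc3, which moves glucuronides and bile acids back to blood, read 231, 156, 212, 238 and 187 in the 80 mg/kg livers, against 9.24, 25.1, 30.4, 22.3 and 23.9 in the 30 mg/kg livers (log2 fold change 3.29 ± 0.39, adjusted p = 1.53e-09). The aldo-keto reductase Akr1b8 read 234 to 532 in the 80 mg/kg livers, against 31.2 to 46.6 in the 30 mg/kg livers (log2 fold change 3.09 ± 0.33, adjusted p = 1.50e-10). Srxn1, which repairs overoxidized peroxiredoxins, read 192 to 436 in the 80 mg/kg livers, against 72.4 to 84.8 in the 30 mg/kg livers (log2 fold change 1.95 ± 0.20, adjusted p = 3.37e-11).

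Several textbook members of that programme moved little. Gclc, the catalytic subunit of the enzyme that limits glutathione synthesis, read 701 to 941 in the 80 mg/kg livers, against 507 to 647 in the 30 mg/kg livers (log2 fold change 0.42 ± 0.14, adjusted p = 0.0107). With a common median it no longer passed. Hmox1, which degrades haem, read 218 to 285 in the 80 mg/kg livers, against 126 to 234 in the 30 mg/kg livers (log2 fold change 0.54 ± 0.18, adjusted p = 0.0122). It too no longer passed with a common median, nor without replicate 5 of 30 mg/kg (adjusted p = 0.0575). Nqo1, a quinone reductase, read 444, 733, 389, 616 and 316 in the 80 mg/kg livers, against 252, 589, 651, 238 and 569 in the 30 mg/kg livers. Its groups overlapped and it did not pass (log2 fold change 0.18 ± 0.38, adjusted p = 0.719). The Gpx2 promoter is shown because it holds, just before the start site, a match to TGACNNNGC, the core of the antioxidant response element, on the opposite strand. The sequence is RefSeq's for GRCr8, chr6:101229984-101230283, minus strand, from 250 bases before to 50 bases after the start, with the match in capitals.
Gpx2: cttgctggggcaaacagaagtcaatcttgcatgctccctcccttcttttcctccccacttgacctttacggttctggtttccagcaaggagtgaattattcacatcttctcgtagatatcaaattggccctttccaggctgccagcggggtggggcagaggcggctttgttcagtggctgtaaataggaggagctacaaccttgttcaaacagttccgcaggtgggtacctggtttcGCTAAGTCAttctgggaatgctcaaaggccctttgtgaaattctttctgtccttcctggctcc
On both strands, 5 of the 21 matched promoters of the list held this motif, 23.8%, against 12.2% of 27457 promoters of the same length, and the Gpx2 match overlaps no other motif searched. The carriers in the list were Gpx2, Gclm, Me1, Ugdh and Nfe2l2. Among the glutathione transferases, 6 of 16 matched promoters held it, 37.5%. These included Gsta3 and Gstp1, which rose, and Gstm7 and Gstz1, which fell.

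Glutathione transferases, which couple glutathione to electrophiles, moved in both directions: 4 of 19 rose and 7 fell, against 31.5% and 14.6% of all genes. The share that rose was thus under that of all genes. After quantile normalization 9 rose and 4 fell. Besides Gstm3, Gsta3 rose, with 1445, 1601, 1638, 1278 and 1611 in the 80 mg/kg livers, against 385, 523, 676, 392 and 311 in the 30 mg/kg livers (log2 fold change 1.78 ± 0.28, adjusted p = 9.54e-07). Gsta3 was one of the few genes already higher at 30 mg/kg than in controls, which read 59 to 80.4 (log2 fold change of 30 mg/kg over control 2.65 ± 0.28, adjusted p = 1.17e-08). Gstp1, the pi class enzyme that marks altered hepatocyte foci in rats, read 416, 1316, 1072, 1336 and 805 in the 80 mg/kg livers, against 321, 246, 357, 313 and 149.9 in the 30 mg/kg livers (log2 fold change 1.78 ± 0.31, adjusted p = 5.38e-06). Its groups did not overlap. Gstm7 fell, at 96.9 to 341 in the 80 mg/kg livers, against 485 to 856 in the 30 mg/kg livers (log2 fold change -1.77 ± 0.23, adjusted p = 1.34e-08). Gstz1 (-0.74) and the microsomal Mgst3 (-0.67) fell as well. Among 17 aldo-keto reductases and aldehyde dehydrogenases, 5 rose, near the share of all genes (31.5%), and 10 fell, against 14.6% of all genes. Aldh1a1, which oxidizes retinal, read 2649 to 3244 in the 80 mg/kg livers, against 772 to 1524 in the 30 mg/kg livers, and 187 to 618 in controls (log2 fold change 1.41 ± 0.28, adjusted p = 6.24e-05). Mitochondrial Aldh2, the main acetaldehyde dehydrogenase, read 1859 to 2620.04 in the 80 mg/kg livers, against 3302 to 3651 in the 30 mg/kg livers (log2 fold change -0.69 ± 0.07, adjusted p = 6.77e-11). Akr1c1 read 96.6 to 278 in the 80 mg/kg livers, against 448 to 702 in the 30 mg/kg livers (log2 fold change -1.80 ± 0.27, adjusted p = 4.06e-07).

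Targets of ATF4, the transcription factor made when the integrated stress response slows translation, were among the lists furthest from the all-gene median. Of 28 members, 18 rose and 5 fell, against 31.5% and 14.6% of all genes, with a median log2 fold change of 1.11. The share that fell was near that of all genes. By array, the median member stood 0.80, 1.18, 1.20, 0.91 and 0.71 above the 30 mg/kg mean in replicates 1 to 5 at 80 mg/kg, on the log2 scale, against -0.08 to 0.19 in the 30 mg/kg livers. Trib3, a pseudokinase that restrains ATF4, read 931, 1128, 889, 572 and 740.5 in the 80 mg/kg livers, against 83.1, 66.6, 115, 121 and 86.9 in the 30 mg/kg livers (log2 fold change 3.17 ± 0.34, adjusted p = 1.11e-10), and all 3 of its probe sets passed. Phgdh, the first enzyme of serine synthesis, read 264, 403, 309.7, 159 and 245 in the 80 mg/kg livers, against 32.7, 28.8, 54.2, 28.6 and 23.1 in the 30 mg/kg livers (log2 fold change 3.04 ± 0.71, adjusted p = 4.14e-04). Both genes were intermediate at 30 mg/kg, since controls read 30 to 66.4 for Trib3 and 0.7 to 15.8 for Phgdh, but neither 30 mg/kg rise passed (adjusted p = 0.105 and 0.0865). Asns, asparagine synthetase, read 148 to 299 in the 80 mg/kg livers, against 38.4 to 71.9 in the 30 mg/kg livers (log2 fold change 1.99 ± 0.32, adjusted p = 1.58e-06). Ddit3, the pro-apoptotic factor also named CHOP, read 185 to 364 in the 80 mg/kg livers, against 54.5 to 115 in the 30 mg/kg livers (log2 fold change 1.90 ± 0.26, adjusted p = 3.07e-08).

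The secreted members of the list rose as well. Fgf21, a liver hormone of fasting and stress, read 360, 476, 466, 224 and 267 in the 80 mg/kg livers, against 107, 59.2, 98.7, 172 and 62.1 in the 30 mg/kg livers (log2 fold change 1.90 ± 0.36, adjusted p = 2.66e-05). It was already higher at 30 mg/kg than in controls, at 16.8 to 35.5 (log2 fold change 1.95 ± 0.36, adjusted p = 0.00255). Gdf15, a stress hormone that acts on appetite, read 69.4 to 92.9 in the 80 mg/kg livers, against 26.9 to 68 in the 30 mg/kg livers (log2 fold change 1.15 ± 0.41, adjusted p = 0.0176). With a common median it did not pass (adjusted p = 0.0543). Among the members that fell were Sesn2, a leucine sensor, at 161 to 201 in the 80 mg/kg livers, against 217 to 397 in the 30 mg/kg livers (log2 fold change -0.67 ± 0.22, adjusted p = 0.0101). The transcription factor Cebpb fell too (log2 fold change -0.53 ± 0.21, adjusted p = 0.0314). Sesn2 did not pass without replicate 5 of 30 mg/kg (adjusted p = 0.0521), and Cebpb did not pass after quantile normalization or without replicate 1 or 4 of 80 mg/kg or 4 or 5 of 30 mg/kg (adjusted p = 0.0502 to 0.0993). Without replicate 4 of 80 mg/kg, 3 ATF4 targets fell.

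Aminoacyl-tRNA synthetases, which load amino acids onto tRNA and several of which are ATF4 targets, rose in part. Of 19, 13 rose and 0 fell, against 31.5% and 14.6% of all genes. With a common median, 7 rose and 1 fell. Sars1, for serine, read 498, 633, 579, 392 and 426 in the 80 mg/kg livers, against 221, 222, 232, 217 and 303 in the 30 mg/kg livers (log2 fold change 1.07 ± 0.12, adjusted p = 4.92e-10). Iars1, for isoleucine, read 282 to 493 in the 80 mg/kg livers, against 195 to 239 in the 30 mg/kg livers (log2 fold change 0.82 ± 0.13, adjusted p = 7.48e-07), while its other probe set did not pass. Gars1, for glycine, read 804 to 1109.8 in the 80 mg/kg livers, against 453 to 633 in the 30 mg/kg livers (log2 fold change 0.81 ± 0.10, adjusted p = 4.69e-09). Vars1, for valine, read 89.4 to 109.8 in the 80 mg/kg livers, against 43.7 to 61.7 in the 30 mg/kg livers (log2 fold change 1.005 ± 0.12, adjusted p = 2.54e-09), again with 1 of 2 probe sets not passing. The promoters of 7 of 17 matched synthetase genes, 41.2%, held TGATGNAA, a form of the element that ATF4 binds together with C/EBP proteins, on either strand, against 3.82% of all promoters. In the ATF4 list 4 of 24 did, 16.7%, which were those of Trib3, Chac1, Fgf21 and Nupr1. Not every carrier rose. Aars1, a synthetase gene with the element, did not pass (log2 fold change 0.10 ± 0.08, adjusted p = 0.272). Chac1 had a mean of 342 in the 80 mg/kg livers, against 551 in the 30 mg/kg livers. The RefSeq promoters of Trib3 (chr3:161275484-161275783, minus strand), Fgf21 (chr1:105221327-105221626, minus strand) and Iars1 (chr17:15193603-15193902, minus strand) in GRCr8 are shown because these genes rose and carry the element, in capitals and on the opposite strand in each.
Trib3: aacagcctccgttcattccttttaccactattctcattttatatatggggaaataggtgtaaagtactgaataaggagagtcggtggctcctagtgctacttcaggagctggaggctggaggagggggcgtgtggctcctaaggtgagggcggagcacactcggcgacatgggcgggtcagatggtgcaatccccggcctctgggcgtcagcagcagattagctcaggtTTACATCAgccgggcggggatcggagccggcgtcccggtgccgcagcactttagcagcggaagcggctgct
Fgf21: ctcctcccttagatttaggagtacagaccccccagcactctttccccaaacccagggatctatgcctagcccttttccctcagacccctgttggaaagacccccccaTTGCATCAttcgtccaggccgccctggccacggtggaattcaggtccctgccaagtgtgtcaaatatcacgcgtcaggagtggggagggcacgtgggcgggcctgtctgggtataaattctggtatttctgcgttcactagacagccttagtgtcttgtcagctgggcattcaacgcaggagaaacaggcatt
Iars1: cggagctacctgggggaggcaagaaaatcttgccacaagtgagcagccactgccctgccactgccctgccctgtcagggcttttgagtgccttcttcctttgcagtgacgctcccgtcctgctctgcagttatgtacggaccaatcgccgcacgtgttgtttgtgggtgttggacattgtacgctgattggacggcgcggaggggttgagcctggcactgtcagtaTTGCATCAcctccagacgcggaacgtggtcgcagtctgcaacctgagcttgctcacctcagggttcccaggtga
In Trib3 and Iars1 the match lies within 30 bases before the start site, and in Fgf21 it lies 143 to 136 bases before it. The matches describe these windows and say nothing of binding.

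Chaperones of the endoplasmic reticulum, which fold secreted proteins, were listed together with genes of protein degradation and with Xbp1, Sec61b and Ssr3. This list did not rise with the ATF4 targets. Of its 24 genes, 1 rose and 14 fell, against 31.5% and 14.6% of all genes. After quantile normalization 4 rose and 8 fell, and the number that fell was 9 without replicate 2 of 80 mg/kg. Hspa5, the main chaperone of this compartment, read 3865 to 4381 in the 80 mg/kg livers, against 3864 to 4455 in the 30 mg/kg livers (log2 fold change -0.01 ± 0.08, adjusted p = 0.938), but after quantile normalization it was higher by 0.31 on the log2 scale (adjusted p = 7.81e-04). Sdf2l1 fell, at 264 to 391 in the 80 mg/kg livers, against 565 to 673 in the 30 mg/kg livers (log2 fold change -0.87 ± 0.13, adjusted p = 5.09e-07). Pdia4, a disulfide isomerase, fell as well, at 951 to 1275 in the 80 mg/kg livers, against 1661 to 1943 in the 30 mg/kg livers (log2 fold change -0.73 ± 0.09, adjusted p = 5.41e-09). Sel1l and Edem1, which send misfolded proteins to degradation, had log2 fold changes of -0.70 and -0.81, and both passed. The riser was Dnajc3, an inhibitor of the kinase PERK, at 1538 to 1900.1 in the 80 mg/kg livers, against 1284 to 1512 in the 30 mg/kg livers (log2 fold change 0.27 ± 0.07, adjusted p = 0.00205). It did not pass with a common median.

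Mitosis genes had the highest median fold change of the 30 pathway lists. Against 31.5% and 14.6% of all genes, 28 of 29 mitosis genes measured rose and 0 fell, with a median log2 fold change of 1.85. Of 25 DNA replication genes, 20 rose and 0 fell, with a median of 0.75. With a common median 27 and 16 rose, and none fell. Ccna2, the cyclin of S and G2 phase, read 175, 122, 168, 607 and 120.2 in the 80 mg/kg livers, against 44.5, 40.2, 75.4, 20.3 and 20.3 in the 30 mg/kg livers (log2 fold change 2.44 ± 0.50, adjusted p = 7.50e-05). Mki67, the chromosome-coating protein that marks cycling cells, read 150.01, 74.5, 114, 409 and 71.7 in the 80 mg/kg livers, against 37.4, 43.9, 63.5, 18.1 and 25.2 in the 30 mg/kg livers (log2 fold change 1.92 ± 0.41, adjusted p = 1.46e-04). In both genes replicate 4 at 80 mg/kg was far above the other 4, and the 4 still lay above every 30 mg/kg liver. Plk1, a kinase of mitotic entry, read 59.7, 25.4, 39.3, 145 and 20.4 in the 80 mg/kg livers, against 1.24, 10.2, 20.3, 4.02 and 1.81 in the 30 mg/kg livers (log2 fold change 3.30 ± 0.75, adjusted p = 2.91e-04). Its highest 30 mg/kg liver was just under its lowest 80 mg/kg liver. Ttk, a kinase of the spindle checkpoint, passed narrowly (log2 fold change 2.41 ± 0.93, adjusted p = 0.0299) and did not pass under 2 scalings, or without any of replicates 1, 3 and 4 of 80 mg/kg and 1, 4 and 5 of 30 mg/kg (adjusted p = 0.0537 to 0.117).

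The animals at 80 mg/kg varied widely in these genes. Of the 29 mitosis genes, 29 were highest in replicate 4 among the 80 mg/kg livers, and 23 were lowest in replicate 5. The median member stood 2.05, 1.12, 1.74, 3.30 and 0.94 above the 30 mg/kg mean in replicates 1 to 5 at 80 mg/kg, on the log2 scale, against -0.66 to 0.89 in the 30 mg/kg livers, where replicate 3 was highest. Without replicate 4 of 80 mg/kg, 25 of 29 mitosis genes and 16 of 25 replication genes still passed as higher. All 5 livers at 80 mg/kg lay above all 5 at 30 mg/kg in 12 of the mitosis genes and 3 of the replication genes, against 19.8% of all genes. Mcm6, a subunit of the replicative helicase, read 109, 57.9, 82, 249.9 and 45.6 in the 80 mg/kg livers, against 41, 37.1, 48.4, 37.1 and 34.8 in the 30 mg/kg livers (log2 fold change 1.19 ± 0.24, adjusted p = 7.05e-05). Mcm3, another subunit, read 22.3 to 90 in the 80 mg/kg livers, against 9.62 to 22.3 in the 30 mg/kg livers (log2 fold change 1.49 ± 0.44, adjusted p = 0.0046). Fen1, the flap nuclease of lagging strands, read 24.7 to 84.2 in the 80 mg/kg livers, against 3.5 to 27.5 in the 30 mg/kg livers (log2 fold change 1.58 ± 0.32, adjusted p = 7.41e-05). Ccne2, the cyclin of S phase entry, read 20.8 to 121 in the 80 mg/kg livers, against 9.83 to 20.9 in the 30 mg/kg livers (log2 fold change 1.48 ± 0.37, adjusted p = 0.00101). In these 4 genes the groups overlapped.

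The promoters of the 2 lists were searched for elements known from cell cycle genes. TTTGAA, the core of the cell cycle homology region known from genes of the G2 and M phases, was found on either strand in 17 of 24 matched mitosis promoters (70.8%) and in 2 of 23 replication promoters (8.7%), against 18.1% of all promoters. CCAAT was in 18 of the 24 (75%) and in 11 of the 23 (47.8%), against 37.7% of all promoters, and both motifs together were in 15 of the 24 (62.5%), against 7.25%. The E2F forms TTTGGCGC and TTTCGCGC, which can overlap each other on opposite strands, were in 7 and 8 of the 23 replication promoters and at least 1 of them in 12 (52.2%), against 0.841% of all promoters, and in 0 and 1 of the 24 mitosis promoters. Plk1 (chr1:186147408-186147707, plus strand) and Mki67 (chr1:199952544-199952843, minus strand) are shown for TTTGAA and CCAAT in capitals, and Mcm6 (chr13:42404303-42404602, minus strand) for the E2F forms in capitals, all from RefSeq in GRCr8.
Plk1: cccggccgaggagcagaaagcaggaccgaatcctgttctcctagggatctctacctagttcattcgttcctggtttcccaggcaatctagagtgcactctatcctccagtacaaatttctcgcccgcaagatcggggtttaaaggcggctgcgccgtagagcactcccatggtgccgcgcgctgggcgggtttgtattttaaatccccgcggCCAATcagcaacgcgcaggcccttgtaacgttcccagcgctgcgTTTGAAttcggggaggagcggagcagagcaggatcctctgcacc
Mki67: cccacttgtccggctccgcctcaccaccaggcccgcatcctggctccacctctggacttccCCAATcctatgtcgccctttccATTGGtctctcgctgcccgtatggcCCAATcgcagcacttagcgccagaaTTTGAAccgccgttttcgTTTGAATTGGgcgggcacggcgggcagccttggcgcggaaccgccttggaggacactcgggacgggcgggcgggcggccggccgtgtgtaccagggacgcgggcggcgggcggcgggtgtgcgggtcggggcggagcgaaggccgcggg
Mcm6: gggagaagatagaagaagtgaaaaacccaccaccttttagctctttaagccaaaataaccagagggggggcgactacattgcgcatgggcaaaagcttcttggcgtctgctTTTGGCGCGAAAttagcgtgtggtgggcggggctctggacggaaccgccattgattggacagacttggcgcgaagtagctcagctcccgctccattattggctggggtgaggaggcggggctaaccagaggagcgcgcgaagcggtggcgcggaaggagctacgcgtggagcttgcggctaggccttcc
In Plk1 the capitals are CCAAT and, after the start site, TTTGAA. Mki67 held 6 matches, of which 1 TTTGAA overlaps a reversed CCAAT, and in Mcm6 the 2 E2F forms overlap on opposite strands. These are letter matches in a fixed window around each start.

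**Figure D2:**
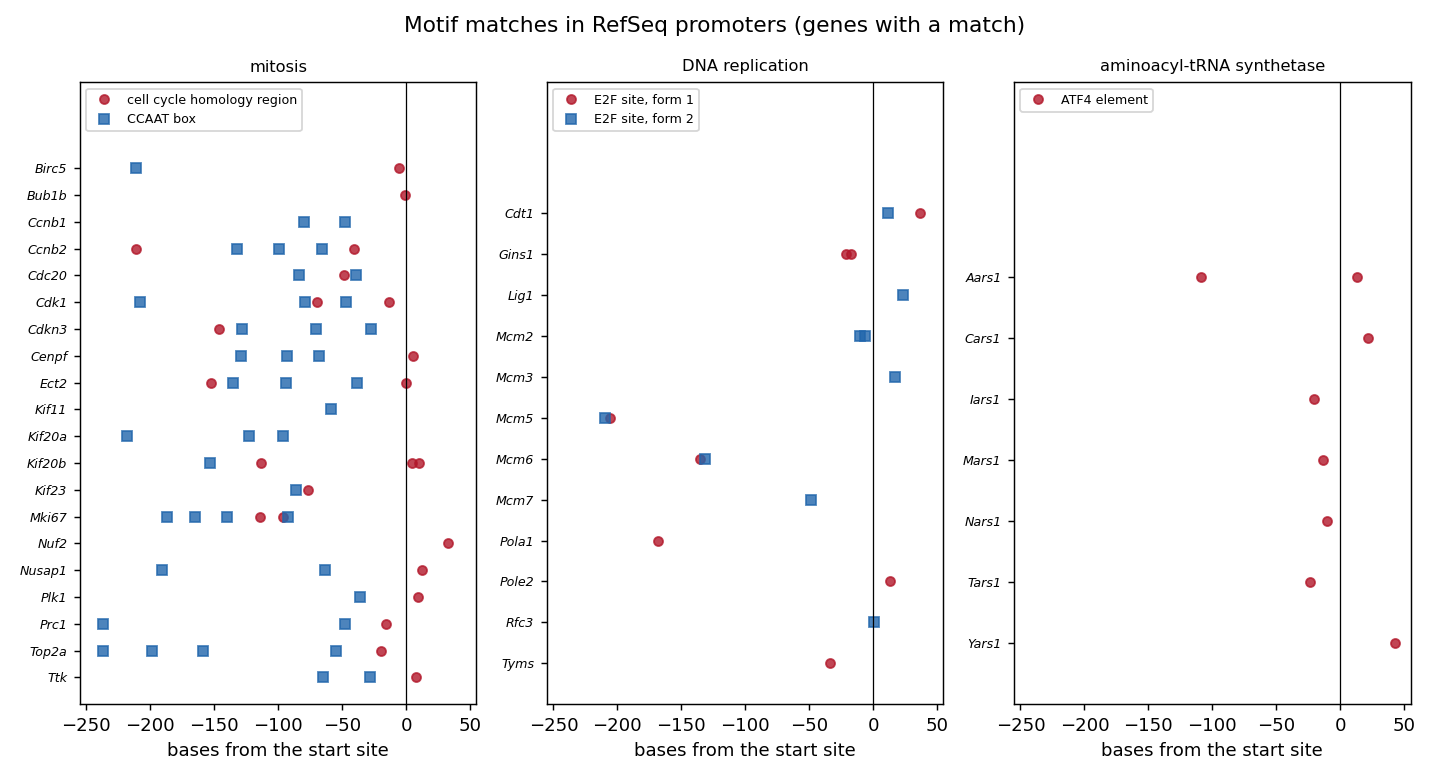
Position of motif matches, in bases from the start site, in the promoters of mitosis, DNA replication and aminoacyl-tRNA synthetase genes that hold a match, 1 row per gene and 1 symbol per match. TTTGAA, called the cell cycle homology region in the key, was found in 17 of 24 mitosis promoters and CCAAT in 18, an E2F form in 12 of 23 replication promoters, and the ATF4 element in 7 of 17 synthetase promoters.

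Targets of p53, which arrest or remove damaged cells, rose in 11 of 14 genes measured and fell in 0, against 31.5% and 14.6% of all genes. Their median log2 fold change was 0.93. With a common median 10 rose and 1 fell, and the counts were the same after quantile normalization. Cdkn1a, the inhibitor of cyclin-dependent kinases named p21, read 242, 335, 282, 308 and 251 in the 80 mg/kg livers, against 87.7, 88.1, 139, 214 and 204 in the 30 mg/kg livers (log2 fold change 1.05 ± 0.21, adjusted p = 7.80e-05). Every 80 mg/kg liver was above every 30 mg/kg liver. Ccng1, a cyclin that p53 induces, read 340.2 to 561 in the 80 mg/kg livers, against 166 to 203 in the 30 mg/kg livers (log2 fold change 1.30 ± 0.14, adjusted p = 1.67e-10). Mdm2, the ligase that degrades p53, read 189 to 342 in the 80 mg/kg livers, against 116 to 148 in the 30 mg/kg livers (log2 fold change 0.98 ± 0.12, adjusted p = 3.43e-09). Gadd45a, which responds to DNA damage and other stress, read 358 to 543 in the 80 mg/kg livers, against 85.2 to 201 in the 30 mg/kg livers (log2 fold change 1.70 ± 0.37, adjusted p = 1.76e-04). Ddit4l read 17.9 to 46 in the 80 mg/kg livers, against 1.92 to 9.93 in the 30 mg/kg livers (log2 fold change 2.34 ± 0.38, adjusted p = 1.33e-06). By array the median member stood 0.85, 1.12, 1.01, 0.79 and 0.51 above the 30 mg/kg mean in replicates 1 to 5, so replicate 5 was lowest here also.

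Cytochrome P450 genes of drug metabolism were mostly lower: 17 of 21 fell and 1 rose, against 14.6% and 31.5% of all genes. Cyp2c11, the main male-specific P450 of rat liver, read 1896, 2614, 1731, 1548 and 2875 in the 80 mg/kg livers, against 5833, 6206, 5983, 5600.2 and 5180.4 in the 30 mg/kg livers (log2 fold change -1.47 ± 0.22, adjusted p = 2.51e-07). The riser was Cyp2c12, its female-specific counterpart, with 3464, 2829.99, 3353, 3834 and 2409 in the 80 mg/kg livers, against 235, 176, 336, 179 and 1229 in the 30 mg/kg livers (log2 fold change 3.32 ± 0.51, adjusted p = 6.14e-07). Except in replicate 5, the 30 mg/kg livers resembled the controls for Cyp2c12, which read 99.6 to 357, and all 80 mg/kg livers were far above them. Cyp2c7 fell unevenly, at 1589, 1380.02, 2202, 4285 and 4803 in the 80 mg/kg livers, against 6541, 7111, 6821, 5856 and 6246 in the 30 mg/kg livers (log2 fold change -1.37 ± 0.31, adjusted p = 3.35e-04). Cyp3a9 and Cyp2t1 fell too (-1.88 ± 0.30 and -1.35 ± 0.12). The wider list of growth hormone axis and sex-biased genes was mostly lower too. Of its 22 genes, 18 fell and 1, Cyp2c12, rose, against 14.6% and 31.5% of all genes. The list also holds genes of the hormone axis, such as Ghr, Stat5b and Igf1, so its count is not one of sex-biased genes alone. In that list Hao2 read 149.5 to 681 in the 80 mg/kg livers, against 1787 to 3119 in the 30 mg/kg livers (log2 fold change -2.35 ± 0.26, adjusted p = 2.63e-10). The male-biased transporter Ust5r read 85.7 to 418 in the 80 mg/kg livers, against 886 to 1279.7 in the 30 mg/kg livers (log2 fold change -2.16 ± 0.24, adjusted p = 2.61e-10). The urinary pheromone carrier Obp3 read 750.2 to 3021 in the 80 mg/kg livers, against 4993 to 7705 in the 30 mg/kg livers (log2 fold change -1.83 ± 0.35, adjusted p = 2.18e-05). By array the median member of that list was -0.93, -0.89, -0.93, -1.07 and -0.35 in replicates 1 to 5, against -0.08 to 0.12 in the 30 mg/kg livers.

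In bile acid synthesis and transport, 13 of 23 genes fell and 5 rose, against 14.6% and 31.5% of all genes. The 5 that rose were the ATP-driven exporters Abcb4, Abcb1a, Abcc2, Abcc3 and Abcc4. Abcb4 did not pass with a common median (adjusted p = 0.0811). Slc10a1, the sodium-coupled bile acid importer, read 1924, 1769, 1464, 1831 and 2832 in the 80 mg/kg livers, against 4337, 4809.6, 4304, 4226 and 4308 in the 30 mg/kg livers (log2 fold change -1.20 ± 0.16, adjusted p = 1.52e-08). Amacr, a peroxisomal enzyme of side chain shortening, read 1255 to 2406 in the 80 mg/kg livers, against 3799 to 4881 in the 30 mg/kg livers (log2 fold change -1.21 ± 0.14, adjusted p = 4.74e-10). Acox2, which acts after it in the same organelle, read 882 to 1685 in the 80 mg/kg livers, against 2280.4 to 2679.8 in the 30 mg/kg livers (log2 fold change -1.04 ± 0.12, adjusted p = 4.37e-10). Abcg5, which exports sterols into bile, read 19.3 to 26.5 in the 80 mg/kg livers, against 41.8 to 123 in the 30 mg/kg livers (log2 fold change -1.45 ± 0.35, adjusted p = 5.21e-04). The basolateral exporter Abcc4 read 141, 148, 171, 98 and 88 in the 80 mg/kg livers, against 30.4, 38.8, 33.3, 28.7 and 30.8 in the 30 mg/kg livers (log2 fold change 1.96 ± 0.19, adjusted p = 2.32e-11). Cyp7a1, the rate-limiting enzyme of bile acid synthesis, read 2839, 3025, 3120.1, 1554 and 1742 in the 80 mg/kg livers, against 2400.2, 1999.6, 3390.01, 2339.5 and 2795 in the 30 mg/kg livers. Its groups overlapped and it did not pass (log2 fold change -0.11 ± 0.28, adjusted p = 0.768).

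Amino acid breakdown and the urea cycle were lower in most measured genes. Of 37, 31 fell and 1 rose, against 14.6% and 31.5% of all genes, with a median log2 fold change of -0.78. In 30 of the 37, all 5 livers at 80 mg/kg lay below all 5 at 30 mg/kg, against 9.85% of all genes. Sds, serine dehydratase, read 60.8, 42.9, 27.2, 47.1 and 155 in the 80 mg/kg livers, against 554, 499, 683, 609.96 and 685 in the 30 mg/kg livers (log2 fold change -3.44 ± 0.51, adjusted p = 3.01e-07). Hal, which opens histidine breakdown, read 226, 357, 222, 343 and 420.04 in the 80 mg/kg livers, against 978, 1178, 976, 944 and 1428 in the 30 mg/kg livers (log2 fold change -1.84 ± 0.23, adjusted p = 5.54e-09). Oat, ornithine aminotransferase, read 547 to 1548 in the 80 mg/kg livers, against 2744 to 4339.9 in the 30 mg/kg livers (log2 fold change -1.85 ± 0.19, adjusted p = 9.12e-11). Gpt, alanine aminotransferase, read 274 to 588 in the 80 mg/kg livers, against 1209 to 1613 in the 30 mg/kg livers (log2 fold change -1.57 ± 0.23, adjusted p = 1.67e-07). The gene that rose was Asl, argininosuccinate lyase, at 1369.9 to 1819 in the 80 mg/kg livers, against 1083 to 1372 in the 30 mg/kg livers (log2 fold change 0.43 ± 0.12, adjusted p = 0.00393). It did not pass with a common median. By array the median member was -0.82, -0.62, -0.87, -0.98 and -0.40 in replicates 1 to 5, so replicate 5 was nearest to the 30 mg/kg livers, and 29 of the 37 genes were highest in it among the 80 mg/kg livers.

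Plasma proteins made by hepatocytes were lower almost throughout. For comparison, 14.6% of all genes fell and 31.5% rose. Of 17 coagulation genes 16 fell, of 16 complement genes 16 fell, of 22 apolipoproteins and carriers 21 fell, and none of these rose. After quantile normalization 11, 13 and 10 fell, with 1 carrier rising. C6, a component of the membrane attack complex, read 129.7, 176, 186, 206 and 371 in the 80 mg/kg livers, against 1151, 949.7, 886, 901 and 720.3 in the 30 mg/kg livers (log2 fold change -2.18 ± 0.29, adjusted p = 2.78e-08). C8b, of the same complex, read 932 to 1971 in the 80 mg/kg livers, against 2474 to 3918 in the 30 mg/kg livers (log2 fold change -1.24 ± 0.20, adjusted p = 1.64e-06). Coagulation factor F9 read 2054 to 2800.3 in the 80 mg/kg livers, against 3746 to 4243 in the 30 mg/kg livers (log2 fold change -0.78 ± 0.10, adjusted p = 2.11e-08). In all 3 genes the 80 mg/kg livers lay below the 30 mg/kg livers, as did coagulation factor F10 (-0.79 ± 0.08) and C8g (-0.97 ± 0.10). Apoa4, a lipoprotein component, read 257 to 522 in the 80 mg/kg livers, against 844 to 2272 in the 30 mg/kg livers (log2 fold change -2.07 ± 0.24, adjusted p = 7.23e-10). The vitamin E carrier Afm read 1764 to 2574 in the 80 mg/kg livers, against 3850.3 to 4172 in the 30 mg/kg livers (log2 fold change -0.94 ± 0.11, adjusted p = 1.20e-09).

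Albumin itself, Alb, read 5231, 5048, 4530.3, 4788 and 5694 in the 80 mg/kg livers, against 6535, 6705, 6945, 5741 and 5834 in the 30 mg/kg livers. All 80 mg/kg values were below all 30 mg/kg values, but the gene did not pass (log2 fold change -0.33 ± 0.14, adjusted p = 0.0558). After quantile normalization its log2 fold change was 0.0957. It passed without replicate 5 of 80 mg/kg or replicate 4 of 30 mg/kg (adjusted p = 0.0412 and 0.0489) with a common median (adjusted p = 0.00646), with only the groups compared (adjusted p = 0.00432), with array weights (adjusted p = 0.0277) and with the replicate block (adjusted p = 0.027). Of 19 acute phase genes, 15 fell and 1 rose, against 14.6% and 31.5% of all genes. A2m, the proteinase inhibitor that marks inflammation in rats, read 21.3 to 26.1 in the 80 mg/kg livers, against 44 to 84 in the 30 mg/kg livers, and 85.3 to 369.8 in controls (log2 fold change -1.33 ± 0.38, adjusted p = 0.00342). Apcs, serum amyloid P, read 1412 to 2599 in the 80 mg/kg livers, against 3788 to 4305 in the 30 mg/kg livers (log2 fold change -1.15 ± 0.13, adjusted p = 3.17e-10). The riser was Lcn2, an iron-binding defence protein of injured epithelium, at 76.1 to 161 in the 80 mg/kg livers, against 26 to 61 in the 30 mg/kg livers (log2 fold change 1.57 ± 0.25, adjusted p = 9.39e-07). Beside these lists, 8 of the 9 hepatocyte markers were lower, against 14.6% of all genes. With quantile normalization 0 of the markers were lower and 1 was higher. Their part in the results of these lists was not tested.

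Hepatocyte transcription factors fell in 11 of 19 cases and rose in 1, against 14.6% and 31.5% of all genes. After quantile normalization 8 fell, and 8 fell without replicate 3 of 80 mg/kg. The list includes Dbp, Tef and Hlf, which the list of clock genes holds too. Foxa1, a pioneer factor, read 54.2 to 89.4 in the 80 mg/kg livers, against 105 to 144 in the 30 mg/kg livers (log2 fold change -0.87 ± 0.16, adjusted p = 1.41e-05). Hlf, a factor with circadian output, read 70.6 to 100.5 in the 80 mg/kg livers, against 163 to 205 in the 30 mg/kg livers (log2 fold change -1.02 ± 0.16, adjusted p = 5.89e-07). Dbp, a factor of the same family, rose at 31.4 to 55 in the 80 mg/kg livers, against 9.63 to 27.8 in the 30 mg/kg livers (log2 fold change 1.20 ± 0.31, adjusted p = 0.00141). In the 14 clock genes, 1 (Dbp) rose and 1 (Hlf) fell, against 31.5% and 14.6% of all genes, and under either other scaling 1 rose and 4 fell. The time of day of sampling is not given in the sources used here.

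Lipid and glucose metabolism were lower in several branches. Of 20 genes of fatty acid oxidation and ketone synthesis, 12 fell and 1 rose, against 14.6% and 31.5% of all genes. Hadh, an oxidation enzyme of shorter chains, read 1326 to 1989.9 in the 80 mg/kg livers, against 2752 to 3212 in the 30 mg/kg livers (log2 fold change -0.87 ± 0.08, adjusted p = 6.39e-12). Acsl1, which activates fatty acids, read 2365 to 4201 in the 80 mg/kg livers, against 5153 to 5682 in the 30 mg/kg livers (log2 fold change -0.73 ± 0.10, adjusted p = 6.15e-08). Hadhb, of the mitochondrial trifunctional protein, rose (log2 fold change 0.41 ± 0.09, adjusted p = 1.45e-04) but did not pass with a common median. All 20 measured genes of this list were lowest in replicate 4 among the 80 mg/kg livers, the animal with the highest cell division signals. Of 23 peroxisomal genes and targets of the fatty acid sensor PPAR alpha, 5 rose and 7 fell, against 31.5% and 14.6% of all genes, and after quantile normalization 7 rose and 5 fell. Acot2, the mitochondrial relative of Acot1, read 1723, 2103, 1794, 1061 and 1342 in the 80 mg/kg livers, against 405, 391, 468, 356 and 344 in the 30 mg/kg livers (log2 fold change 1.998 ± 0.22, adjusted p = 1.60e-10), with no overlap. Fabp1, the liver fatty acid carrier, read 5359 to 7439 in the 80 mg/kg livers, against 8570.1 to 10115 in the 30 mg/kg livers (log2 fold change -0.66 ± 0.11, adjusted p = 3.67e-06). Pdk4, which spares glucose, read 546 to 757 in the 80 mg/kg livers, against 729 to 1314 in the 30 mg/kg livers (log2 fold change -0.63 ± 0.19, adjusted p = 0.00537).

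Fatty acid synthesis genes fell in 9 of 17 cases and rose in 0, against 14.6% and 31.5% of all genes. Thrsp, a lipogenic factor, read 665 to 1461 in the 80 mg/kg livers, against 2044 to 4364 in the 30 mg/kg livers (log2 fold change -1.59 ± 0.29, adjusted p = 1.60e-05). Pklr, the liver pyruvate kinase, read 101 to 229.6 in the 80 mg/kg livers, against 316 to 689 in the 30 mg/kg livers (log2 fold change -1.58 ± 0.23, adjusted p = 1.41e-07). Scd, a desaturase, read 709 to 4056 in the 80 mg/kg livers, against 2629 to 5367 in the 30 mg/kg livers (log2 fold change -1.34 ± 0.40, adjusted p = 0.00534) with overlap. Of 16 genes of glucose metabolism, 10 fell and 0 rose, against 14.6% and 31.5% of all genes. Among those that fell were the glucose-6-phosphate carrier Slc37a4 (-0.93 ± 0.12) and glycogen phosphorylase Pygl (-0.81 ± 0.10). After quantile normalization 6 fell. Cholesterol synthesis genes gave 2 higher and 2 lower of 17, under the shares of all genes. They were 0 and 4 with a common median, and 4 and 2 after quantile normalization. Sqle, squalene epoxidase, read 309, 518, 456, 241 and 262 in the 80 mg/kg livers, against 211, 165, 272, 201 and 210 in the 30 mg/kg livers (log2 fold change 0.71 ± 0.24, adjusted p = 0.0141). It did not pass with a common median or without replicate 2 or 3 of 80 mg/kg (adjusted p = 0.0674 and 0.0518). Replicate 2 held the highest 80 mg/kg value in 14 of the 17 genes of this list, and the number that rose was 0 without it. Stard4, a sterol carrier, fell by its brightest probe set (log2 fold change -0.74 ± 0.15, adjusted p = 4.03e-05), whereas 1 of its other 2 did not pass.

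Respiratory chain subunits gave 17 lower and 0 higher of 28, against 14.6% and 31.5% of all genes. The direction turned after quantile normalization, with 7 higher and 2 lower. Sdha, the flavoprotein of complex II, read 1269.9 to 1508 in the 80 mg/kg livers, against 1721 to 1969 in the 30 mg/kg livers (log2 fold change -0.43 ± 0.06, adjusted p = 1.44e-08). Among 14 mitochondrial chaperones and proteases, 6 rose and 2 fell, near the shares of all genes (31.5% and 14.6%), and with a common median 2 rose and 3 fell. Lonp1, the matrix protease that removes oxidized proteins, read 708, 922, 739, 570.4 and 729 in the 80 mg/kg livers, against 422, 450.5, 441, 435 and 395 in the 30 mg/kg livers (log2 fold change 0.76 ± 0.08, adjusted p = 1.73e-10). Clpx, the partner of another matrix protease, read 910.2, 1073, 881, 684 and 1319.9 in the 80 mg/kg livers, against 1559, 1670.2, 1654, 1527 and 1637 in the 30 mg/kg livers (log2 fold change -0.76 ± 0.10, adjusted p = 2.19e-08). The pair moved in opposite directions with no overlap between doses in either. The proteasome list gave 3 higher and 5 lower of 30, below the background shares of 31.5% and near 14.6%, and the direction turned with the scaling, with 1 higher and 13 lower at a common median and 13 higher and 3 lower after quantile normalization. As 1 array was left out at a time, 1 to 6 proteasome genes were higher, with 1 without replicate 4 of 80 mg/kg. Cytosolic heat shock genes gave 2 higher and 1 lower of 13, under the shares of all genes, and 0 and 4 with a common median. Immediate early genes gave 5 higher and 2 lower of 14, near the shares of all genes, and 2 and 2 under either other scaling. Klf6 read 169 to 278 in the 80 mg/kg livers, against 70.7 to 91.8 in the 30 mg/kg livers (log2 fold change 1.44 ± 0.16, adjusted p = 6.26e-10). Dusp1, a phosphatase of stress kinases, read 318 to 989 in the 80 mg/kg livers, against 951 to 1840.4 in the 30 mg/kg livers (log2 fold change -1.08 ± 0.30, adjusted p = 0.00236). Without replicate 2 or 5 of 80 mg/kg, 2 immediate early genes rose.

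**Figure D3:**
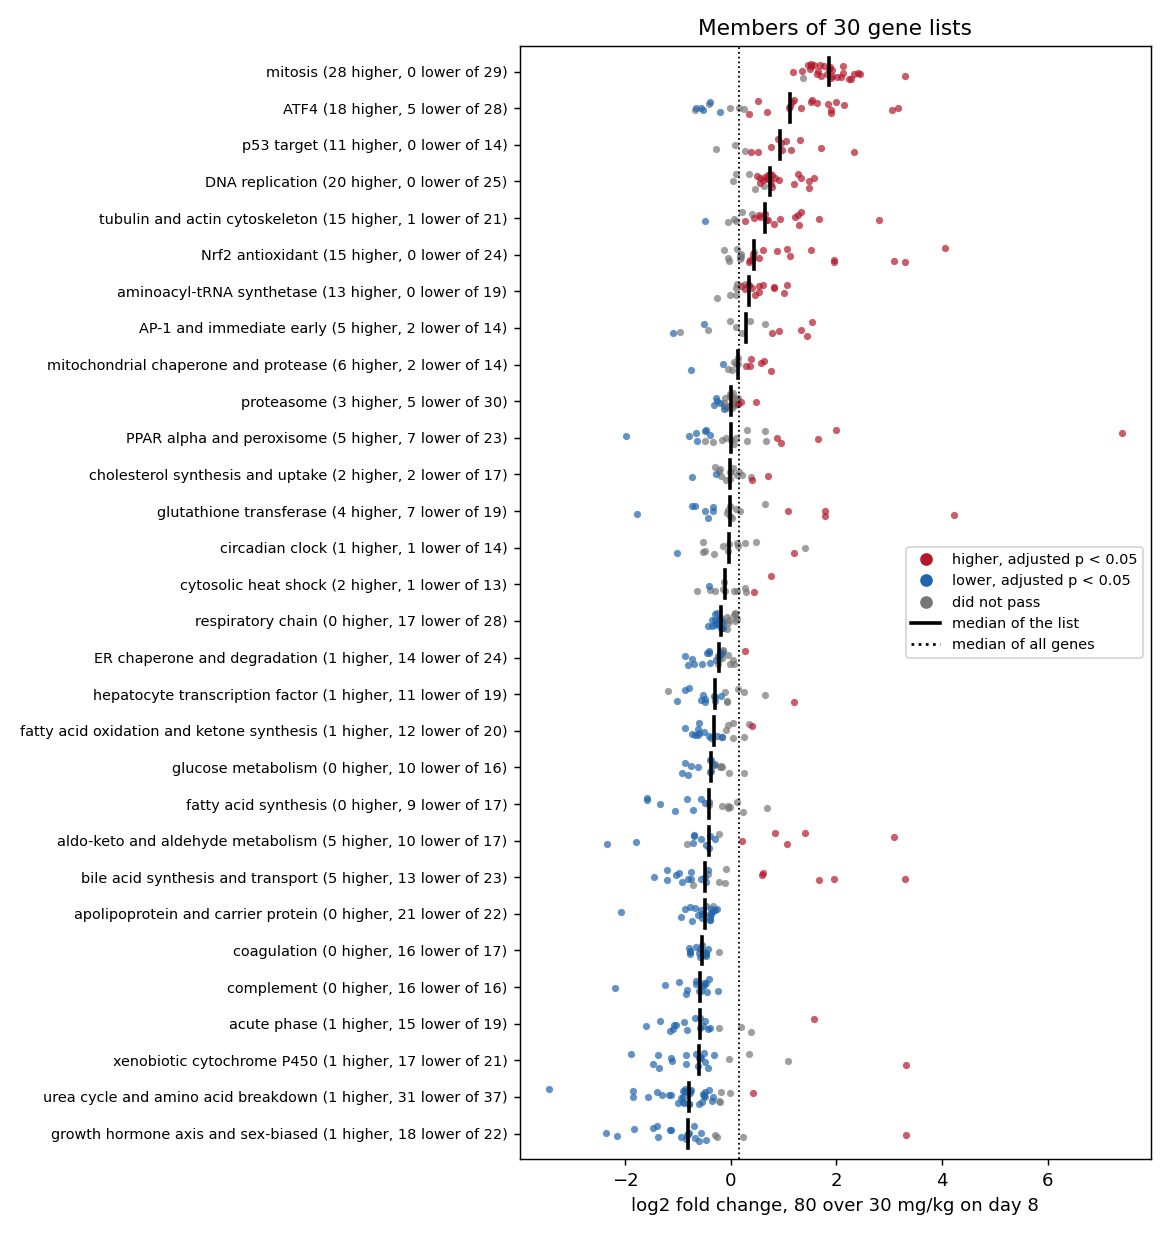
Log2 fold change of 80 over 30 mg/kg on day 8 for every measured member of 30 gene lists, 1 point per gene, ordered by the list's median (black bar), with the median of all genes as a dotted line. Mitosis genes had the highest median, 1.85, and the growth hormone and sex-biased list the lowest, -0.81.

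Markers of other liver cells were also compared. Most macrophage and bile duct markers were higher in the 80 mg/kg livers, but few or none of the endothelial, T and NK lymphocyte, neutrophil and red cell markers were. Of 20 macrophage and monocyte markers 15 rose and 1 fell, against 31.5% and 14.6% of all genes, and with a common median 8 rose and 1 fell. Their summed signal was 8405 to 10138 in the 80 mg/kg arrays, against 5893 to 8102 in the 30 mg/kg arrays, without overlap. Gpnmb, a glycoprotein of lipid-laden macrophages, read 505, 359, 514, 922 and 385 in the 80 mg/kg livers, against 98.3, 98, 148, 105 and 84.5 in the 30 mg/kg livers (log2 fold change 2.27 ± 0.25, adjusted p = 3.82e-10). Lgals3, galectin-3, read 318 to 752 in the 80 mg/kg livers, against 125 to 252 in the 30 mg/kg livers (log2 fold change 1.46 ± 0.20, adjusted p = 5.49e-08). The chemokine Ccl2 read 32.7 to 38 in the 80 mg/kg livers, against 6.54 to 27.2 in the 30 mg/kg livers (log2 fold change 1.41 ± 0.54, adjusted p = 0.0293) but did not pass under either scaling alternative or without replicate 2 or 4 of 30 mg/kg (adjusted p = 0.0969 and 0.0627). Mmp12, the macrophage elastase and a gene outside this list, read 99.8, 46.6, 67.3, 199 and 82.8 in the 80 mg/kg livers, against 7.75, 5.89, 14.2, 8.07 and 2.57 in the 30 mg/kg livers (9.32-fold, log2 fold change 3.71 ± 0.38, adjusted p = 5.03e-11). Cd14, a receptor for bacterial lipopolysaccharide, was the marker that fell, at 419 to 942 in the 80 mg/kg livers, against 1138 to 1409.7 in the 30 mg/kg livers (log2 fold change -0.88 ± 0.13, adjusted p = 3.99e-07).

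Markers of bile duct and progenitor cells rose in 10 of 15 and fell in 2, against 31.5% and 14.6% of all genes. Their summed signal was 6115 to 7654 in the 80 mg/kg arrays, against 3451 to 4979.6 in the 30 mg/kg arrays, with no overlap. Krt19, Cldn7 and Cd24, with means of 48.8, 29 and 62 in the 80 mg/kg livers, were a small part of that sum. The list shares Spp1 with the macrophage list and Anxa5 with the cytoskeletal list, so its sum is not a measure of bile duct cells alone. Cldn7, a tight junction protein, read 26.6, 23.4, 34.8, 34.8 and 25.4 in the 80 mg/kg livers, against 4.66, 4.56, 1.18, 1.42 and 1.57 in the 30 mg/kg livers (at least 7.56-fold higher with signals under 3.31 set to that value, adjusted p = 2.84e-05). Cd24, a surface protein of progenitors, read 44 to 76.6 in the 80 mg/kg livers, against 15.9 to 22.3 in the 30 mg/kg livers (log2 fold change 1.66 ± 0.24, adjusted p = 2.19e-07). Anxa5, annexin 5, which bile duct and other cells express, read 603 to 726 in the 80 mg/kg livers, against 241 to 286 in the 30 mg/kg livers (log2 fold change 1.34 ± 0.13, adjusted p = 1.15e-11). Krt19, the defining keratin of bile ducts, read 33.6, 54.1, 51.9, 35 and 69.5 in the 80 mg/kg livers, against 26.1, 39.7, 47.4, 39.1 and 32.1 in the 30 mg/kg livers. It overlapped and did not pass (log2 fold change 0.38 ± 0.21, adjusted p = 0.13). The 2 that fell were Aqp1 and Afp, so members listed as progenitor markers did not all rise. The water channel Aqp1 fell by its brighter probe set (log2 fold change -0.79 ± 0.26, adjusted p = 0.0119), and its other probe set did not pass. Without replicate 3 of 80 mg/kg Aqp1 did not pass (adjusted p = 0.0543).

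Of 19 stellate cell and matrix genes, 9 rose and none fell, against 31.5% and 14.6% of all genes. With a common median, 4 rose and 1 fell. Timp1, an inhibitor of matrix breakdown, read 78.7 to 159.9 in the 80 mg/kg livers, against 28.7 to 61.5 in the 30 mg/kg livers (log2 fold change 1.09 ± 0.29, adjusted p = 0.00181). Lox, which links collagen fibres, read 27.6 to 74 in the 80 mg/kg livers, against 15.5 to 26.5 in the 30 mg/kg livers (log2 fold change 1.06 ± 0.31, adjusted p = 0.0041). The summed signal of the list overlapped between the doses, at 3327 to 5098 in the 80 mg/kg arrays, against 3291 to 3785 in the 30 mg/kg arrays. Of 13 endothelial markers 0 rose and 1, Kdr (log2 fold change -0.32 ± 0.10, adjusted p = 0.00641), fell, both under the shares of all genes. Under either other scaling 4 fell, and with its probe sets averaged Kdr did not pass (adjusted p = 0.252). Of the 10 T and NK lymphocyte markers measured 1 rose, under the share of all genes (0 without replicate 2 of 80 mg/kg and under either other scaling). Of the 4 mast cell markers 2 rose, against 31.5% of all genes. Among these, histidine decarboxylase, Hdc, read 32.4 to 57 in the 80 mg/kg livers, against 17.9 to 25.1 in the 30 mg/kg livers (log2 fold change 1.08 ± 0.33, adjusted p = 0.0071). The summed mast cell signal was 101 to 135 in the 80 mg/kg arrays, against 65.5 to 80.3 in the 30 mg/kg arrays, without overlap. Of 3 B cell markers 2 rose, against 31.5% of all genes. Their sums were 103 to 169.8 in the 80 mg/kg arrays, against 46.3 to 100 in the 30 mg/kg arrays. The 1 neutrophil marker that passed the filter, of 10 listed, read 15.3 to 30.8 in the 80 mg/kg arrays, against 18.4 to 29 in the 30 mg/kg arrays, and it did not pass the test. The lymphocyte sums were 271 to 329.8 in the 80 mg/kg arrays, against 198 to 321 in the 30 mg/kg arrays, and the endothelial sums were 2891 to 3295 in the 80 mg/kg arrays, against 2846 to 3253 in the 30 mg/kg arrays. Of 5 red cell genes 3 fell and 0 rose, against 14.6% and 31.5% of all genes. Hbb read 858 to 3082 in the 80 mg/kg livers, against 2549 to 5051 in the 30 mg/kg livers (log2 fold change -0.89 ± 0.24, adjusted p = 0.00185). The summed signal of the red cell genes was 1094 to 3529 in the 80 mg/kg arrays, against 3125 to 6044 in the 30 mg/kg arrays. No measured marker of these lists was at 0 in any group, but markers under the signal filter were not measured here. Cytoskeletal genes of tubulin, actin and annexins rose in 15 of 21 and fell in 1, against 31.5% and 14.6% of all genes. Tubb6 read 399, 228, 371, 754 and 175 in the 80 mg/kg livers, against 46.2, 68.9, 62, 37.9 and 36.2 in the 30 mg/kg livers (log2 fold change 2.80 ± 0.36, adjusted p = 1.55e-08). Anxa2 read 195 to 437 in the 80 mg/kg livers, against 83.7 to 117 in the 30 mg/kg livers (log2 fold change 1.67 ± 0.21, adjusted p = 6.51e-09). The part of changed cell numbers in any of these results was not tested.

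**Figure D4:**
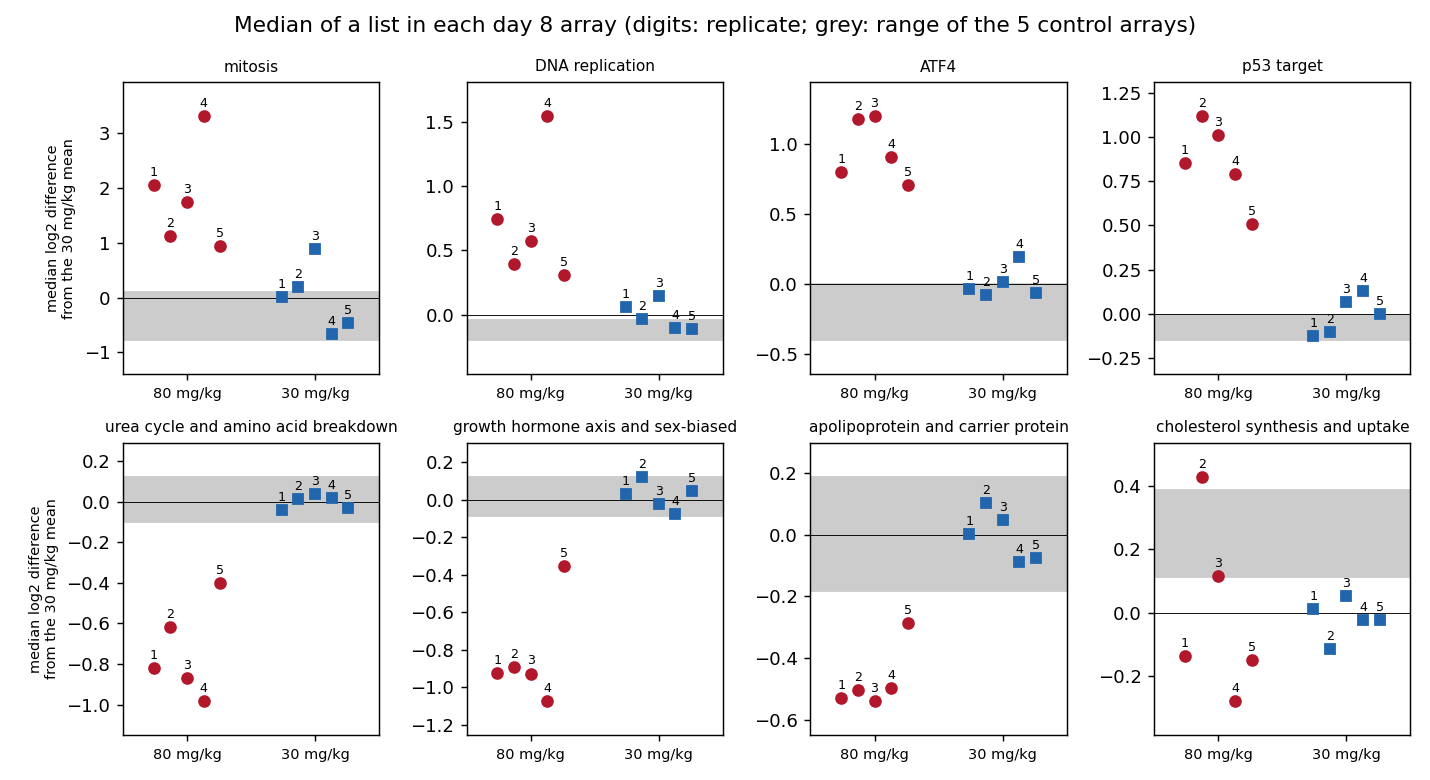
Median log2 difference from the 30 mg/kg mean over the members of 8 gene lists, in each 80 mg/kg array (circles) and each 30 mg/kg array (squares) of day 8, with the replicate number beside the point and the range of the 5 control arrays in grey. Replicate 4 at 80 mg/kg is highest for mitosis, at 3.30, and replicate 5 is nearest to the 30 mg/kg livers for amino acid breakdown, at -0.40.

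The difference between the doses was then compared with that on days 4 and 15, in the same fit. On day 4, 2154 genes (20.1%) passed between 80 and 30 mg/kg, and on day 15, 5921 genes (55.2%) did. The difference on day 8 itself differed from that on day 4 in 157 genes, 1.46% of those tested, with 0.83% of the tested genes higher and 0.634% lower on day 8. It differed from that on day 15 in 128 genes, 1.19%, with 0.485% higher and 0.709% lower. Both comparisons of days share the 10 day 8 arrays. The counts depended on single arrays. The day 4 comparison gave 40 genes without replicate 2 of 80 mg/kg on day 4 and 343 without replicate 5 of 80 mg/kg on day 8. The day 15 comparison gave 11 genes without replicate 2 of 80 mg/kg on day 15 and 277 without replicate 1 of that group. Stac3 had log2 fold changes of -2.28 ± 0.44, -5.87 ± 0.41 and -6.75 ± 0.41 on days 4, 8 and 15 (day 8 minus day 4 -3.59 ± 0.60, adjusted p = 0.00238). Mmp12 gave 0.50 ± 0.40 on day 4, 3.71 ± 0.38 on day 8 and 2.78 ± 0.38 on day 15 (day 8 minus day 4 3.21 ± 0.56, adjusted p = 0.00271). In both genes the doses were further apart on day 8 than on day 4.

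Tsx (2.85 ± 0.54 for day 8 minus day 4), Gpnmb (1.41 ± 0.37) and Anxa5 (0.89 ± 0.19) also differed more on day 8, as did, downward, Slc22a8 (-1.97 ± 0.39), C6 (-1.78 ± 0.43), Hal (-1.30 ± 0.33) and Oat (-1.12 ± 0.28). Acot2 gave 1.67 ± 0.23 on day 4, 1.998 ± 0.22 on day 8 and 2.29 ± 0.22 on day 15, and neither difference between days passed (adjusted p = 0.654 and 0.665). Trib3 gave 2.60 ± 0.36, 3.17 ± 0.34 and 2.48 ± 0.34 on those days, and neither passed (adjusted p = 0.614 and 0.479). None of the 29 mitosis genes and none of the 28 ATF4 targets passed in either comparison of days, against 1.46% and 1.19% of all genes. At such small shares few members of any list would pass, so these counts do not show that the dose difference stayed the same. In the amino acid breakdown list 4 genes differed from day 4 and 0 from day 15. Against day 15, Csrp2, a LIM domain protein, gave 1.70 ± 0.22 on day 8 and 3.50 ± 0.22 on day 15 (day 8 minus day 15 -1.80 ± 0.31, adjusted p = 0.00225). Ldhb, a lactate dehydrogenase subunit, gave 1.09 ± 0.23 and 2.43 ± 0.23 (-1.34 ± 0.33). Abcc4 gave 1.96 ± 0.19 and 3.00 ± 0.19 (-1.04 ± 0.28). In these 3 genes the doses were further apart on day 15. Serpina5, a protease inhibitor, gave -0.70 ± 0.37 on day 8 and -2.80 ± 0.37 on day 15 (2.10 ± 0.52). Ntf3, a neurotrophin, gave -1.56 ± 0.32 and -3.28 ± 0.32 (1.72 ± 0.45).

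**Figure D5:**
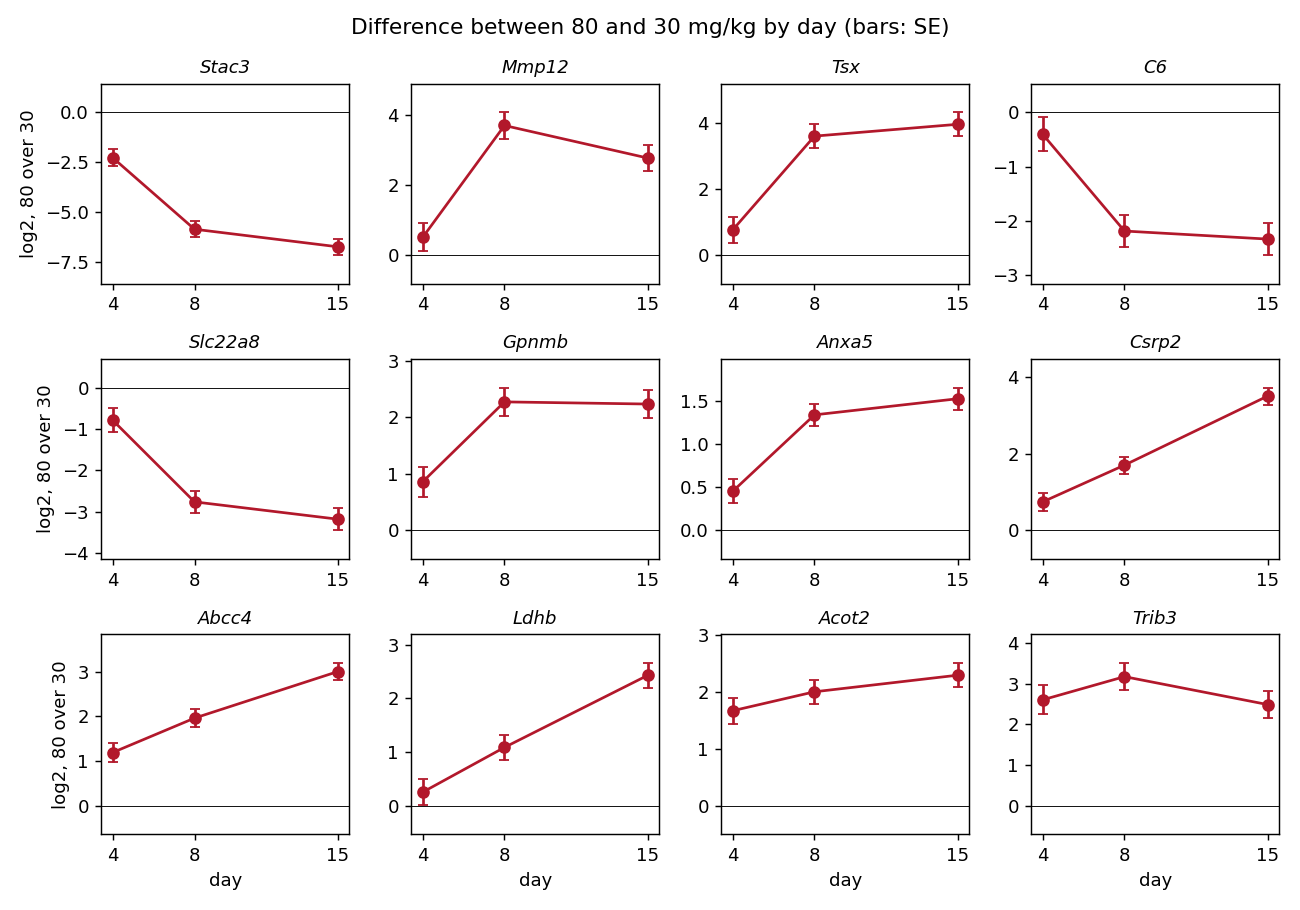
Log2 fold change of 80 over 30 mg/kg on days 4, 8 and 15 for 12 genes, with bars of 1 standard error from the fit over all arrays. Stac3, Slc22a8 and C6 were further below 0, and Mmp12, Tsx, Gpnmb and Anxa5 further above 0, on day 8 than on day 4, while Csrp2, Abcc4 and Ldhb were furthest above 0 on day 15.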

How the data were processed

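Total RNA of whole liver was hybridised to Affymetrix rat GeneChip arrays after 3′ IVT Express labelling, per the labels' protocols. The deposited values are MAS5 signal intensities, per the submitters' processing notes, in which the MAS5 version is not given. They are linear, and each array's mean after trimming 2% at each end was the same (99.99). They were set to log2 here without an offset. Of 31099 probe sets, 20832 had 1 gene symbol in the platform annotation and 436 had several. Probe sets above the median of all values (17.09) on at least 4 arrays were kept (18727), and the brightest per gene gave 10726 genes. Genes under the filter were not tested. One group mean for each of the 12 groups of dose and day was fitted over all 57 arrays with limma 3.58.1 in R 4.3.3 (lmFit and eBayes with a trend), and the difference of 80 minus 30 mg/kg on day 8, and its difference from days 4 and 15, were tested with Benjamini-Hochberg adjustment (adjusted p under 0.05). Adjusted p in the text is limma's. Folds are ratios of means with 3.31, the 20th percentile over all arrays, added. The number of arrays limits the precision.

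The script was tested on simulated data. Named genes were the 12 largest rises and falls without overlap between doses, up to 4 passing members of each list in its main direction and 2 in the other, the 4 largest in each direction for each comparison of days, and a fixed set of 25 genes. Members and lists were chosen with earlier results of these data known. The labels number the biological replicates without saying that a number is shared between groups, and the deviations of day 8 arrays with the same number did not correlate (-0.0843 to 0.0947). Promoters (250 bases before to 50 after the start) came from RefSeq, GRCr8, through the gene identifier. Motifs were searched on both strands. Figures were drawn with Python 3.11.15 and matplotlib 3.10.9. The alternatives were quantile normalization, a common median, other filters, the offset before log2, averaging of probe sets per gene, the compared groups alone, a replicate block, array weights and leaving out each array.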

Additional observations from a re-analysis of the deposited data

Results flagged for a closer look

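On the log2 scale, single arrays stood apart from the other 4 of their group in 15 of 288 groups of 5 examined over 140 genes, where chance gives about 1 in 20. In the 80 mg/kg livers of day 8, replicate 4 was apart for Ccna2 (607 against 120.18 to 175.36), Abcb4 (742), Hao2 (149.51), Nox4 (0.5) and Pdk4 (546). Replicate 1 was apart for Dbp (54.99), replicate 3 for Timp1 (159.91) and replicate 5 for Gucy2c (34.08). In the 30 mg/kg livers, replicate 1 was apart for Abcc3 (9.24), replicate 2 for Dusp1 (1840.41) and Slc10a1 (4809.6), replicate 3 for Sel1l (183.74), replicate 4 for Aqp1 (42.8) and Gpt (1612.87), and replicate 5 for Sars1 (302.78).

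The dose difference on day 8 differed from that on day 4 by the interaction term of the fit for several genes. Higher on day 8 were Mmp12 (3.21 on the log2 scale), Tsx (2.85), Gpnmb (1.41) and Anxa5 (0.89). Lower were Stac3 (-3.59), Slc22a8 (-1.97), C6 (-1.78), Sez6 (-1.57), Ust5r (-1.46), Gstm7 (-1.44), Hal (-1.30), Oat (-1.12), Sdf2l1 (-0.74), Apcs (-0.72), Cyp2t1 (-0.66) and Afm (-0.65). Against day 15, the difference was higher on day 8 for Serpina5 (2.10) and Ntf3 (1.72), and lower for Csrp2 (-1.80), Ldhb (-1.34), Abcc4 (-1.04), Pdk4 (-1.01) and Lonp1 (-0.55). All of these passed limma's adjusted p under 0.05, and the number of genes passing depended on single arrays.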

How the results depend on the processing

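The number of genes that differed between the doses on day 8 was 4096 to 5283 over 9 other settings and 4491 (without replicate 4 of 80 mg/kg) to 4942 (without replicate 5) as 1 array was left out, against 4944. Genes higher were 3037 to 3358 and lower 1439 to 1584 over those omissions. With a common median 1487 were higher and 2609 lower. Genes whose dose difference on day 8 differed from day 4 numbered 63 with a common median, 70 with only the groups compared and 394 with array weights, and 40 to 343 as 1 array was left out. For day 15 they numbered 289 after quantile normalization, 80 without the filter, 203 with a stricter filter, 26 with only the groups compared and 351 with array weights, and 11 to 277 as 1 array was left out. With the replicate number as a block, the counts were 4947 on day 8, 146 for day 4 and 108 for day 15, and the numbers do not pair the animals: 2 of 5 day 8 arrays correlated best with their own number.

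Signs turned only in genes that did not pass. Alb was 0.0957 after quantile normalization. Left-out arrays gave -0.212 to 0.0396 for Cyp7a1, -0.0348 to 0.0216 for Hspa5 and -0.0219 to 0.342 for Nqo1. Cyp7a1 was 0.14 after quantile normalization, 0.0419 with array weights and 0.0396 without replicate 4 of 80 mg/kg. Hspa5 was 0.311 after quantile normalization, where it passed (adjusted p = 7.81e-04), 0.00872 with array weights, 0.00238 and 0.0104 without replicates 3 and 5 of 80 mg/kg, and 5.85e-04 and 0.0216 without replicates 4 and 5 of 30 mg/kg. Nqo1 was -0.0205 with a common median and -9.52e-04 and -0.0219 without replicates 1 and 4 of 30 mg/kg. Of 140 named genes, 14 lost their call under at least 1 other setting and 7 without at least 1 array. The causes were not tested.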
